A study of Homo sapiens with 10 samples.

Results

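The 10 genes described here encode the core of polyamine metabolism: ODC1, AMD1, SRM and SMS for synthesis, SAT1, SMOX and PAOX for breakdown, and AZIN1, OAZ1 and OAZ2 for the control of the first enzyme. They were taken by name from the deposited expression table, and all 10 were among its 60642 gene symbols. All 10 also passed the filter on low values, which asked for a TPM of 1 or more in 2 or more samples and left 17520 genes. TPM is a transcript abundance scaled for transcript length and for the total of its sample. The study profiled untreated cultures of 5 established human prostate cancer lines, LNCaP (clone FGC), DUCAP, VCAP, DU145 and PC3, by polyA-enriched, strand-specific RNA-seq. Each line gave 2 biological repeats, which makes 10 samples. All lines were grown without phenol red in RPMI medium with fetal bovine serum and collected while growing exponentially. All samples are labelled untreated. Each line is a single culture model, derived from a metastasis, and DUCAP and VCAP are known to come from the same patient, so the 5 lines are not 5 independent tumors.

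Polyamines are small cations that bind nucleic acids and are needed for growth. Ornithine is decarboxylated to putrescine, which takes up aminopropyl groups from decarboxylated S-adenosylmethionine to give spermidine and then spermine, and acetylation and oxidation lead back down the chain. Prostate epithelium is known for making and secreting unusually large amounts of spermine into seminal fluid. Much of the control of this pathway lies in translation and protein turnover, which transcript levels do not show.

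The marker genes checked against the line labels were KLK3 and FOLH1, which encode the prostate-specific and prostate-specific membrane antigens, ERG, KRT8, KRT18 and VIM. KLK3 lay between 28.3 and 2625 TPM in LNCaP, DUCAP and VCAP and did not exceed 0.77 TPM in DU145 and PC3. VIM, for the mesenchymal filament vimentin, was at 799 to 1201 TPM in DU145 and PC3 and reached 4.25 TPM at most outside them, and ERG was at 122 to 199 TPM in DUCAP and VCAP and at most at 0.19 TPM elsewhere. FOLH1 was at no more than 1.99 TPM in DUCAP, and it was at 4.97 and 40.9 TPM in the PC3 repeats. The epithelial keratins KRT8 and KRT18 were at 98.95 TPM or more in every sample. Since TPM divide a fixed total, a large class lowers the rest, and mitochondrial transcripts held 32.1 to 36.0% in DUCAP and VCAP, 18.9 to 19.7% in LNCaP and 12.7 to 22.5% in DU145 and PC3. The depth is unknown, because TPM do not carry read numbers.

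Levels are given in TPM. Differences are given as log2 differences of TPM + 1, which understate those of low genes, and were tested with limma over all 17520 genes with Benjamini-Hochberg adjustment at 0.05. limma pools the variation of the 2 repeats over the lines, so an adjusted p concerns these cultures alone. Of the 10 genes, 8 differed somewhere among the 5 lines, where 90.8% of all tested genes did. SAT1 (adjusted p = 0.13) and SMS (adjusted p = 0.079) did not pass this limma test over the 5 lines. ODC1 lost its call without PC3 repeat 1 (adjusted p = 0.051), and OAZ2 lost it after median-ratio scaling (adjusted p = 0.31) and quantile normalization (adjusted p = 0.47). SMS passed on the 3 other scales tried (adjusted p between 0.0022 and 0.011) and without DU145 repeat 2 (adjusted p = 0.00060).

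**Figure D1:**
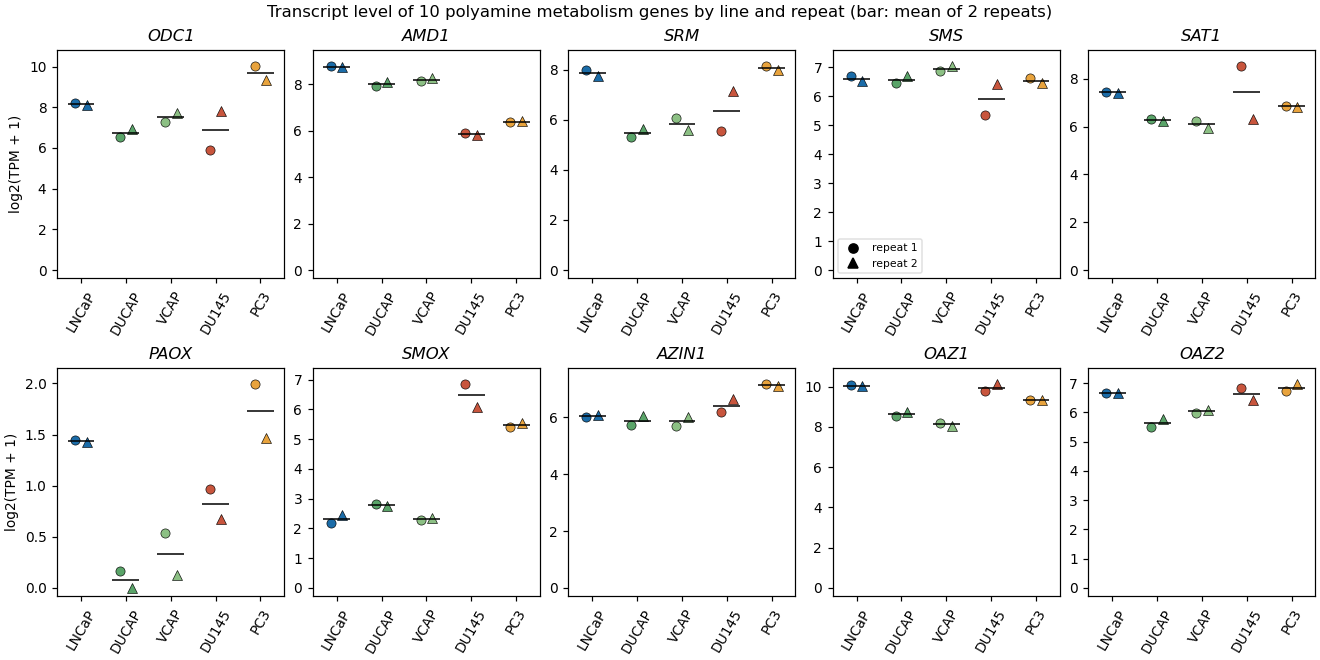
Level of each gene as log2(TPM + 1) in the 5 lines, with 1 circle for repeat 1, 1 triangle for repeat 2 and a bar for their mean (n = 2 per line). AMD1 was high and SMOX low in LNCaP, DUCAP and VCAP, and the repeats of DU145 lay far apart for ODC1, SRM, SMS and SAT1.

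ODC1 encodes ornithine decarboxylase, the first and usually limiting enzyme of the pathway, and lies on chromosome 2 of GRCh38 (10439968 to 10448327). It was expressed at 1035 and 639 TPM in the repeats of PC3, at 295 and 271 TPM in LNCaP, at 152 and 213 TPM in VCAP, at 59.5 and 227 TPM in DU145 and at 92.5 and 120.0 TPM in DUCAP. Both PC3 repeats lay above all other samples, and the remaining lines followed in the order LNCaP, VCAP, DU145 and DUCAP. On the other 3 scales DU145 was lowest in place of DUCAP. VCAP over DU145 was −0.34 on the log2 scale without DU145 repeat 1 and 1.58 without DU145 repeat 2. DU145 over DUCAP was 1.10 without DU145 repeat 1 and −0.81 without DU145 repeat 2. PC3 exceeded LNCaP by 1.52 on the log2 scale (standard error 0.54, adjusted p = 0.039 from limma), whereas no other step between neighbouring lines passed, the next being 0.65 (adjusted p = 0.33) from LNCaP to VCAP. The step from LNCaP to PC3 was lost without the filter on low values (adjusted p = 0.091 from limma). When samples were left out in turn it ranged from 1.17 to 1.87. It was lost without any 1 sample of LNCaP, PC3, DUCAP or VCAP and kept, at 1.52, without either DU145 repeat. The gap between the DU145 repeats adds to the spread that ODC1 is tested against.

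SRM encodes spermidine synthase, which makes spermidine from putrescine, on chromosome 1 (11054589 to 11060018). Its levels were 281 and 253 TPM in PC3, 256 and 214 TPM in LNCaP, 45.7 and 140.2 TPM in DU145, 65.6 and 46.8 TPM in VCAP and 39.2 and 49.2 TPM in DUCAP. PC3 and LNCaP overlapped each other and lay above every sample of the other 3 lines. LNCaP exceeded DU145, the next line, by 1.53 on the log2 scale (standard error 0.44, adjusted p = 0.017 from limma), a call that was lost without LNCaP repeat 1 (adjusted p = 0.10) or repeat 2 (adjusted p = 0.063). Its size rests on DU145, being 0.74 without DU145 repeat 1 and 2.33 without DU145 repeat 2, and it passed in both cases. The repeats of DU145, VCAP and DUCAP overlapped. ODC1 and SRM had a Pearson's r of 0.85 over the 10 samples, a description only, since repeats share a line and all samples share a scale. The 45 pairs among the 10 genes ranged from −0.98, for AMD1 and SMOX, to 0.88, for SRM and PAOX.

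The sequences around the starts of ODC1 and SRM are shown because these synthesis genes followed a similar order of lines. That order is not particular to them. OAZ2 and PAOX had the same order as SRM, whereas ODC1 had VCAP above DU145. The windows are from RefSeq on GRCh38.p14, 250 bases before to 50 bases after an annotated start, and were given for 7 of the 10 genes. They were searched for CACGTG, the canonical E-box, which reads the same on both strands and is in capitals. The start of SRM holds 1 such motif, at position −199 from the start, and the downstream of the 2 listed starts of ODC1 holds 2, at −29 and 6.
ODC1 (chr2:10447963-10448262, minus strand): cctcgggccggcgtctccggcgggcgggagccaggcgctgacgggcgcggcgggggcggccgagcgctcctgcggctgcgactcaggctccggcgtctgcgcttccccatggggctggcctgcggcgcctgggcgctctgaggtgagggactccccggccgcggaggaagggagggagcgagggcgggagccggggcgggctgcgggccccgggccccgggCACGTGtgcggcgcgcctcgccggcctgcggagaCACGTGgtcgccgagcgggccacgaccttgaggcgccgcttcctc
SRM (chr1:11059969-11060268, minus strand): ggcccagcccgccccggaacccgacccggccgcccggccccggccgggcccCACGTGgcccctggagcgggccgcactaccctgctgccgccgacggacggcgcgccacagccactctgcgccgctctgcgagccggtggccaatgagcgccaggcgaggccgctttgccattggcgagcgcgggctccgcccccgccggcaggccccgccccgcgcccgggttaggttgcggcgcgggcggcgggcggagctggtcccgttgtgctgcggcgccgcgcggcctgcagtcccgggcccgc
The windows of the other 5 genes (AMD1, SMS, SAT1, OAZ1 and OAZ2) do not hold these letters, nor does that of the upstream start of ODC1. OAZ2, which shared the order of SRM, is thus without the motif, and PAOX had no window. Of all 35116 windows in the table, 7.26% hold the motif, as do 12.2% of the 11536 tested genes with a window. A match describes the sequence, and binding was not measured.

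AMD1 encodes S-adenosylmethionine decarboxylase, which supplies the aminopropyl groups for both later steps, on chromosome 6 (110814617 to 110895713). It was expressed at 437 and 426 TPM in LNCaP, 278 and 307 TPM in VCAP, 240.2 and 269 TPM in DUCAP, 82.5 and 83.8 TPM in PC3 and 58.6 and 54.8 TPM in DU145. No sample of the first 3 lines overlapped one of the last 2, and the repeats of every line lay close together. The step from DUCAP down to PC3 was 1.60 on the log2 scale (standard error 0.11, adjusted p = 5.4e-06), that from PC3 to DU145 was 0.55 (adjusted p = 0.0047), and that from LNCaP to VCAP was 0.56 (adjusted p = 0.0030, all from limma). VCAP and DUCAP did not differ by this test (0.20, adjusted p = 0.28). The lead of LNCaP over VCAP depended on the scaling, falling to 0.24 after rescaling without mitochondrial genes (adjusted p = 0.095), 0.21 after quantile normalization (adjusted p = 0.13) and 0.01 after median-ratio scaling (adjusted p = 0.97 from limma).

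SMS encodes spermine synthase, which completes the chain, on chromosome X (21940709 to 21994837). It had the narrowest range of line means among the 10 genes, 1.05 on the log2 scale, against 4.15 for SMOX at the other end. Its levels were 115 and 129 TPM in VCAP, 102 and 89.6 TPM in LNCaP, 86.8 and 101 TPM in DUCAP, 96.5 and 85.8 TPM in PC3 and 40.1 and 85.2 TPM in DU145. VCAP was highest and DU145 lowest, and none of the 4 steps between neighbouring lines passed the test. The lead of VCAP over LNCaP, 0.35 on the log2 scale, was 0.89 after median-ratio scaling (adjusted p = 0.027) and 0.88 after quantile normalization (adjusted p = 0.022), and it also passed without either DU145 repeat (adjusted p = 0.048 from limma for each). DUCAP over PC3, a step of 0.04, was 0.86 and 0.93 on these 2 scales (adjusted p = 0.029 and 0.015), and PC3 over DU145, 0.63, was 1.16 without DU145 repeat 2 (adjusted p = 0.0010 from limma).

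On the catabolic side, SMOX encodes spermine oxidase, which converts spermine directly to spermidine with release of hydrogen peroxide, on chromosome 20 (4148828 to 4187727). It was expressed at 114 and 67.2 TPM in DU145 and at 41.1 and 45.4 TPM in PC3. In DUCAP it was at 6.08 and 5.75 TPM, in VCAP at 3.89 and 4.16 TPM and in LNCaP at 3.58 and 4.43 TPM. The order was thus the reverse of that of AMD1 at the break between the 2 sets of lines, and there was no overlap. DU145 exceeded PC3 by 1.00 on the log2 scale (standard error 0.24, adjusted p = 0.0081), and PC3 exceeded DUCAP by 2.68 (adjusted p = 1.7e-05 from limma). The step from PC3 to DU145 was lost without PC3 repeat 1 (0.93) and was 0.63 without DU145 repeat 1. That from DUCAP to PC3 was 1.75 after quantile normalization. DUCAP, VCAP and LNCaP were not told apart from one another on the deposited scale. LNCaP minus DUCAP was −0.74 after rescaling without mitochondrial genes (adjusted p = 0.041 from limma). It was −1.12 after median-ratio scaling and −1.18 after quantile normalization (adjusted p = 0.0050 and 0.0075 from limma).

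PAOX encodes the peroxisomal oxidase of acetylated polyamines, on chromosome 10 (133379262 to 133391694), and was near the floor of the table throughout. Its highest values were 2.98 and 1.77 TPM in PC3 and 1.72 and 1.69 TPM in LNCaP, and its lowest were 0.12 TPM and a listed 0 in the DUCAP repeats. DU145 was at 0.95 and 0.60 TPM and VCAP at 0.45 and 0.09 TPM. PC3 and LNCaP lay above the other 3 lines in every sample. PAOX reached 1 TPM only in PC3 and LNCaP and passed the filter only through them. Its calls, although included in the counts of called genes, are therefore not evidence of a direction. LNCaP exceeded DU145 by 0.61 on the log2 scale (adjusted p = 0.037 from limma), a call that was lost with a pseudocount of 0.1 (adjusted p = 0.15), without the filter on low values (adjusted p = 0.077), after rescaling without mitochondrial genes (adjusted p = 0.052) and without DU145 repeat 2, either LNCaP repeat or either DUCAP repeat (0.056 to 0.15).

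SAT1 encodes spermidine/spermine N1-acetyltransferase, which acetylates polyamines for export or oxidation, on chromosome X (23783173 to 23786210). It was at 174 and 170.1 TPM in LNCaP, 116 and 111 TPM in PC3, 78.2 and 74.9 TPM in DUCAP and 75.3 and 61.2 TPM in VCAP. In DU145 it was at 367 TPM in repeat 1 and at 79.8 TPM in repeat 2, which are the highest value of any sample and one close to DUCAP. The mean log2 levels of LNCaP and DU145 differed by 0.0025, and no step between neighbouring lines passed the test. Without DU145 repeat 1 or without DU145 repeat 2 the 5 lines differed (adjusted p = 0.00016 and 2.0e-05 from limma), so the gap between these 2 samples sets the spread that SAT1 is tested against. LNCaP exceeded DU145 by 1.10 without DU145 repeat 1 and was below it by a difference of −1.09 without repeat 2 (adjusted p = 0.00061 and 0.00057 from limma), and PC3 exceeded DUCAP by 0.57 in either case (adjusted p = 0.0033 and 0.0031).

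The antizymes OAZ1 and OAZ2 bind ornithine decarboxylase and send it to the proteasome. OAZ1, on chromosome 19 (2269486 to 2273488), was at 1067 and 1026 TPM in LNCaP, 879 and 1112 TPM in DU145, 649 TPM in both PC3 repeats, 369 and 429.6 TPM in DUCAP and 291 and 266 TPM in VCAP. LNCaP and DU145 overlapped, while PC3, DUCAP and VCAP were each separate from their neighbours. The steps down were 0.61 from DU145 to PC3 (adjusted p = 0.0081), 0.70 from PC3 to DUCAP (adjusted p = 0.0023) and 0.52 from DUCAP to VCAP (adjusted p = 0.0395, all from limma). The step from PC3 to DUCAP reversed to −0.12 after median-ratio scaling, where it was not called (adjusted p = 0.45), and was 0.21 after quantile normalization (adjusted p = 0.12). That from DUCAP to VCAP was lost without the filter on low values (adjusted p = 0.075), with no trend in the prior variance (adjusted p = 0.053), with the repeat number as a covariate (adjusted p = 0.052) and without any 1 sample of LNCaP, PC3, DUCAP or VCAP (adjusted p between 0.076 and 0.21).

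OAZ2, the less abundant paralog, on chromosome 15 (64687574 to 64703281), was at 104 and 124 TPM in PC3, 99.2 and 100.5 TPM in LNCaP, 112 and 85.2 TPM in DU145, 62.4 and 66.9 TPM in VCAP and 44.6 and 53.8 TPM in DUCAP. As for OAZ1, every sample of DUCAP and VCAP lay below every sample of the other lines. The step from DU145 to VCAP was 0.59 (adjusted p = 0.014 from limma). It shrank to 0.03 after median-ratio scaling, 0.01 after quantile normalization and 0.27 after rescaling without mitochondrial genes (adjusted p = 0.90, 0.97 and 0.23), and it was lost without DU145 repeat 1 (0.39, adjusted p = 0.062) or VCAP repeat 1 (0.54, adjusted p = 0.069).

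AZIN1 encodes antizyme inhibitor, an enzymatically inactive relative of ornithine decarboxylase that takes up antizyme. It was at 143 and 138 TPM in PC3, 72.6 and 98.4 TPM in DU145, 63.5 and 67.5 TPM in LNCaP, 52.2 and 65.1 TPM in DUCAP and 51.4 and 63.8 TPM in VCAP. PC3 exceeded DU145 by 0.73 on the log2 scale (standard error 0.19, adjusted p = 0.012 from limma), without overlap, and the call was lost without PC3 repeat 1 (adjusted p = 0.069) or repeat 2 (adjusted p = 0.056). The other steps did not pass. LNCaP over DUCAP, a step of 0.17, turned to −0.60 after median-ratio scaling (adjusted p = 0.017) and −0.53 after quantile normalization (adjusted p = 0.011 from limma), where DUCAP was the higher line. PC3 had the highest mean log2 level for 5 of the 10 genes (ODC1, SRM, PAOX, AZIN1 and OAZ2), and for 3 after quantile normalization. Its lead over LNCaP did not pass for SRM, PAOX or OAZ2 (adjusted p = 0.75, 0.27 and 0.38 from limma). DUCAP or VCAP was lowest for 7 genes, for 5 after rescaling without mitochondrial genes or median-ratio scaling, and for 4 after quantile normalization. The matching shares of all genes were not counted, so these counts do not set the 10 genes apart. The median of all genes was itself lower in DUCAP and VCAP than in PC3 (log2 differences of −0.62 and −0.47).

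Rows of related sequence had low values. The 6 pseudogene rows of AMD1 and SRM in the table were at no more than 0.20 TPM in any sample. The antisense RNA AZIN1-AS1 was at 1.43 to 5.44 TPM and the divergent transcript ODC1-DT at 0.07 to 3.29 TPM.

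The study itself sets LNCaP, DUCAP and VCAP against DU145 and PC3, the same division that KLK3 showed above. In this contrast 8 of the 10 genes passed, where 74.4% of all genes did. AMD1 and SMS were higher in the 3 lines (22.5% of all genes), and SRM, PAOX, SMOX, AZIN1, OAZ1 and OAZ2 were lower (51.9% of all genes). The median log2 difference was −0.69 over the 10 genes and −0.40 over all genes tested, so a gene that kept pace with the rest was already lower in the 3 lines. The shift of all genes was −0.22 after rescaling without mitochondrial genes, −0.02 after median-ratio scaling and 0.07 after quantile normalization, with 39.0, 47.9 and 53.1% of the called genes higher in place of 30.2%. The higher mitochondrial share of DUCAP and VCAP moves with this contrast, and its part in the differences of the 10 genes was not tested beyond these rescalings.

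AMD1 and SMOX stood well outside this shift. AMD1 was at 240.2 to 437 TPM in the 6 samples of the first group and at 54.8 to 83.8 TPM in the 4 of the second, a log2 difference of 2.19 (standard error 0.07, adjusted p = 6.1e-08 from limma), or 2.60 relative to the median of all genes. SMOX was at 3.58 to 6.08 TPM and at 41.1 to 114 TPM, a log2 difference of −3.49 (standard error 0.15, adjusted p = 2.4e-07), or −3.09 relative to the median. Under the other 3 scalings AMD1 differed by 2.45 to 2.69 and SMOX by −3.31 to −2.95, and both passed without each sample in turn.

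The differences of the remaining genes were smaller and several moved with the scaling. The log2 difference, 3 lines minus 2, was −0.84 for AZIN1 (adjusted p = 0.00025), −0.71 for OAZ1 (adjusted p = 0.00014) and −0.66 for PAOX (adjusted p = 0.0023, all from limma). These 3 passed under all 17 alternatives, although the difference of OAZ1 shrank to −0.24 after median-ratio scaling and that of AZIN1 to −0.30 after quantile normalization. OAZ2 differed by −0.62 (adjusted p = 0.00088), which became −0.15 and −0.09 after median-ratio scaling and quantile normalization and no longer passed (adjusted p = 0.22 and 0.50). LNCaP, one of the 3 lines, had the highest mean log2 level of OAZ1. Its PAOX samples, at 1.72 and 1.69 TPM, lay above those of DU145, at 0.95 and 0.60 TPM. PAOX passed the filter only through LNCaP and PC3, so its call is not evidence of a direction. SRM differed by −0.81 (adjusted p = 0.029 from limma), but LNCaP was as high as PC3. Its call was lost after rescaling without mitochondrial genes (−0.56, adjusted p = 0.086), median-ratio scaling (−0.34, adjusted p = 0.29) and quantile normalization (−0.25, adjusted p = 0.41). It was also lost without LNCaP repeat 1 or 2, PC3 repeat 1 or 2, DUCAP repeat 1 or VCAP repeat 2 (adjusted p between 0.057 and 0.10). SMS differed by 0.49 (adjusted p = 0.045) and by 0.74 to 1.04 after those 3 scalings. When samples were left out in turn, SMS still passed only without DU145 repeat 2 (adjusted p = 0.00030, against 0.063 to 0.14 for the other 9). Without the filter on low values neither SRM (adjusted p = 0.068) nor SMS (adjusted p = 0.090) passed.

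ODC1 and SAT1 did not pass this contrast. The log2 difference of ODC1 was −0.81 (95% interval −1.61 to −0.02, adjusted p = 0.061 from limma). Both PC3 samples lay above the 3 lines, DU145 repeat 2 lay among them and DU145 repeat 1 lay below them. Without DU145 repeat 1 the difference of ODC1 was −1.29 and passed (adjusted p = 0.00082 from limma), and without DU145 repeat 2 it was −0.33 and did not (adjusted p = 0.16). That of SAT1 was −0.53 (95% interval −1.36 to 0.30, adjusted p = 0.21). Without DU145 repeat 1 the difference of SAT1 was 0.02 (adjusted p = 0.87), and without DU145 repeat 2 it was −1.08 and passed (adjusted p = 2.7e-05 from limma). The samples of the 2 groups did not overlap for 3 of the 10 genes, AMD1, SMOX and AZIN1, where 26.7% of all tested genes did not overlap.

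**Figure D2:**
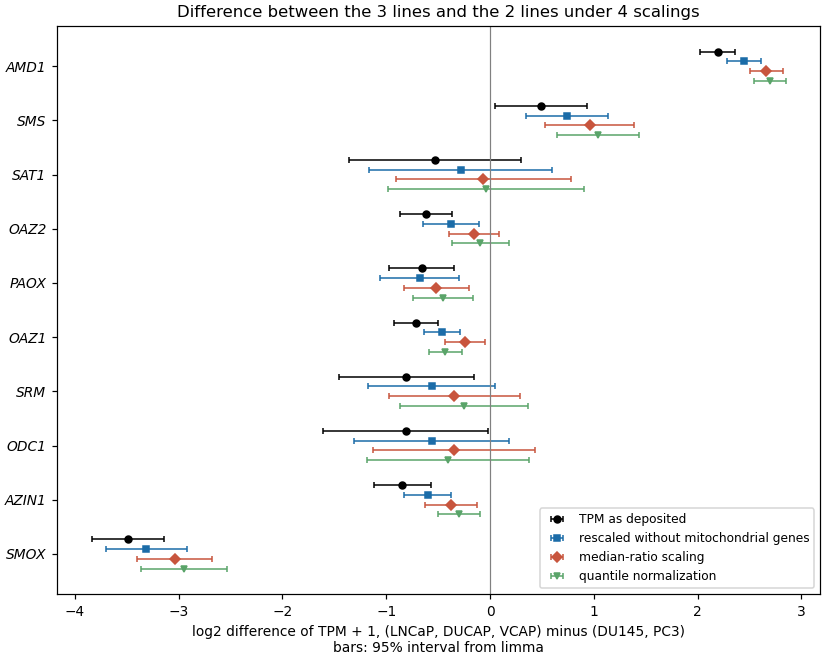
Log2 difference of TPM + 1 between the mean of LNCaP, DUCAP and VCAP and the mean of DU145 and PC3 for each gene, with 95% intervals from limma, under the deposited scale and 3 others. AMD1 was at 2.19 or above and SMOX at −2.95 or below under each, while OAZ2, SRM, ODC1 and SAT1 crossed 0 with their intervals under at least 1 of them.

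Pairs of lines differed in different subsets of the 10 genes. DUCAP and VCAP differed in 1 of them, OAZ1, where 18.3% of all genes differed. LNCaP exceeded DUCAP in ODC1, AMD1, SRM, PAOX, OAZ1 and OAZ2 and VCAP in the same genes but ODC1, where 60.7 and 60.1% of all genes differed. Every called gene was higher in LNCaP, but so was the median of all genes, by 0.55 against DUCAP and 0.38 against VCAP on the log2 scale. SRM, PAOX and OAZ1 were called higher in LNCaP than in either line on all 4 scales. PAOX passed the filter only through LNCaP and PC3, so its calls between pairs of lines are not evidence of a direction. After median-ratio scaling and quantile normalization SMOX and AZIN1 were lower in LNCaP than in DUCAP and SMS lower than in VCAP, and OAZ2 was no longer called in either comparison. SMOX was also lower in LNCaP than in DUCAP after rescaling without mitochondrial genes. LNCaP differed from DU145 in 4 genes (55.9% of all genes), with AMD1, SRM and PAOX higher and SMOX lower, and from PC3 in 5 genes (57.7% of all genes), with AMD1 and OAZ1 higher and ODC1, SMOX and AZIN1 lower.

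DUCAP and VCAP each differed from PC3 in 8 genes, every member but SMS and SAT1, where 67.8 and 67.6% of all genes differed, and AMD1 was the only one of the 8 that was higher in DUCAP or VCAP. The median of all genes was −0.62 for DUCAP minus PC3 and −0.47 for VCAP minus PC3. After median-ratio scaling and quantile normalization SMS was also higher in both lines than in PC3, and OAZ2 was not called against PC3 in either line, nor OAZ1 in DUCAP. AZIN1 in DUCAP was not called after quantile normalization either (adjusted p = 0.051 from limma). Against DU145 each differed in 6 genes (66.6 and 65.4% of all genes). In both comparisons AMD1 was higher and SMOX, AZIN1, OAZ1 and OAZ2 were lower than in DU145, while PAOX passed for DUCAP and SMS for VCAP. The difference between DUCAP and VCAP did not pass for PAOX or SMS. The median of all genes was −0.60 for DUCAP and −0.45 for VCAP against DU145. On the other 3 scales SMS was higher than in DU145 in both lines and AZIN1 was called in neither. On these scales OAZ2 was not called for VCAP, and AMD1, SMOX and OAZ1 kept their calls and directions. For DUCAP, OAZ2 was not called after median-ratio scaling or quantile normalization (adjusted p = 0.30 and 0.26 from limma). PAOX in DUCAP was not called after quantile normalization (adjusted p = 0.069 from limma). DU145 and PC3 differed in 7 genes (49.3% of all genes), with SMOX and OAZ1 higher in DU145 and ODC1, AMD1, SRM, PAOX and AZIN1 higher in PC3. The same genes were called in the same directions on all 4 scales for DU145 against PC3, as they were for LNCaP against PC3. Of the 40 steps between neighbouring lines in the order of levels, 13 passed. The matching share over all tested genes was not counted, so this count does not set the members apart from other genes. Of the 13 steps, 4 passed under all 17 alternatives. For AMD1 these were DUCAP over PC3 and PC3 over DU145. The others were PC3 over DUCAP for SMOX and DU145 over PC3 for OAZ1.

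The 2 DU145 samples stood apart from each other in more than these genes. Mitochondrial transcripts held 22.5% of the total in repeat 1 and 15.3% in repeat 2, and in the list of further pathway genes described below, chosen after their values had been seen, ASS1 was at 132 and 11.0 TPM, AZIN2 at 24.9 and 6.23 TPM and EIF5A at 477 and 1262 TPM. Between the 2 samples 4 of the 10 genes differed at least 2-fold, where 9.48% of all tested genes did. ODC1, SRM and SMS were lower in repeat 1, by log2 differences of −1.92, −1.60 and −1.07, and SAT1 was higher by 2.19. SAT1 was the 1 gene that differed at least 4-fold, where 0.845% of all genes did. The synthesis transcripts ODC1, SRM and SMS were thus at their lower level in the sample in which SAT1 was at its higher one. AMD1, also of synthesis, differed by 0.09. On the other 3 scales these differences were −1.89 to −1.79 for ODC1, −1.57 to −1.47 for SRM, −1.04 to −0.94 for SMS and 2.21 to 2.48 for SAT1. Between the repeats of LNCaP, DUCAP, VCAP and PC3 none of the 10 genes differed 2-fold, where 0.942, 0.902, 2.12 and 0.993% of all genes did. No test within a line was possible with 2 repeats. The labels of the DU145 samples carry the numbers 1 and 3 (those of PC3 carry 2 and 3). They do not say what these numbers stand for, and they give no difference in handling. In a bulk profile, a change in every cell and a change in the share of cells in some state cannot be told apart.

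**Figure D3:**
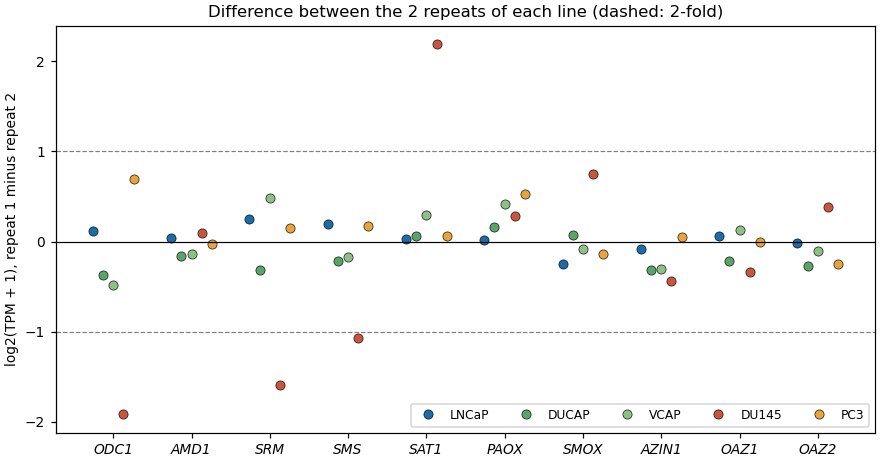
Difference of log2(TPM + 1) between repeat 1 and repeat 2 of each line for each gene, with dashed lines at a 2-fold difference. The DU145 points for ODC1, SRM, SMS and SAT1 lie outside the dashed lines, and every other point lies inside them.

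Ratios of 2 transcripts in the same sample do not move with a sample's scale. The AMD1 to SMOX ratio, chosen after the levels had been seen, was 39.5 to 122 in the samples of LNCaP, DUCAP and VCAP and 0.51 to 2.01 in those of DU145 and PC3. AMD1 to ODC1, also chosen then, was 1.45 to 2.60 in the first group and 0.080 to 0.98 in the second, with PC3 at 0.080 and 0.13. The 2 transcripts of the decarboxylases were thus at different proportions in the 2 groups, with no overlap for either ratio. For AMD1 to SMOX this follows from the levels, since neither gene overlapped between the groups. For AMD1 to ODC1 the DU145 repeats lay apart, at 0.98 and 0.24.

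The SAT1 to ODC1 ratio was 6.18 in DU145 repeat 1 and under 1 in each of the other 9 samples. It was 0.35 in DU145 repeat 2, 0.11 and 0.17 in PC3, 0.50 and 0.29 in VCAP, 0.59 and 0.63 in LNCaP and 0.85 and 0.62 in DUCAP. The OAZ1 to ODC1 ratio was lowest in PC3, at 0.63 and 1.02, followed by VCAP at 1.92 and 1.25, and it was 3.58 to 3.99 in LNCaP and DUCAP and 14.8 and 4.89 in DU145. OAZ1 transcripts thus outnumbered those of ODC1 in every sample but PC3 repeat 1.

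SRM to SMS, the ratio of the aminopropyl transferase that makes spermidine to the one that makes spermine, separated the lines in another way. It was 2.91 and 2.95 in PC3, 2.50 and 2.39 in LNCaP and 1.14 and 1.65 in DU145, and it was 0.36 to 0.57 in DUCAP and VCAP. AZIN1 to the sum of OAZ1 and OAZ2 was 0.054 and 0.060 in LNCaP, 0.073 and 0.082 in DU145, 0.13 in both DUCAP repeats, 0.15 and 0.19 in VCAP and 0.19 and 0.18 in PC3. SMOX to PAOX was 2.08 and 2.62 in LNCaP and 112 and 120.1 in DU145, 13.8 and 25.7 in PC3, 8.64 and 46.2 in VCAP and 50.7 in DUCAP repeat 1, and it rests on very low PAOX values and could not be given for DUCAP repeat 2, where PAOX was listed at 0.

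**Figure D4:**
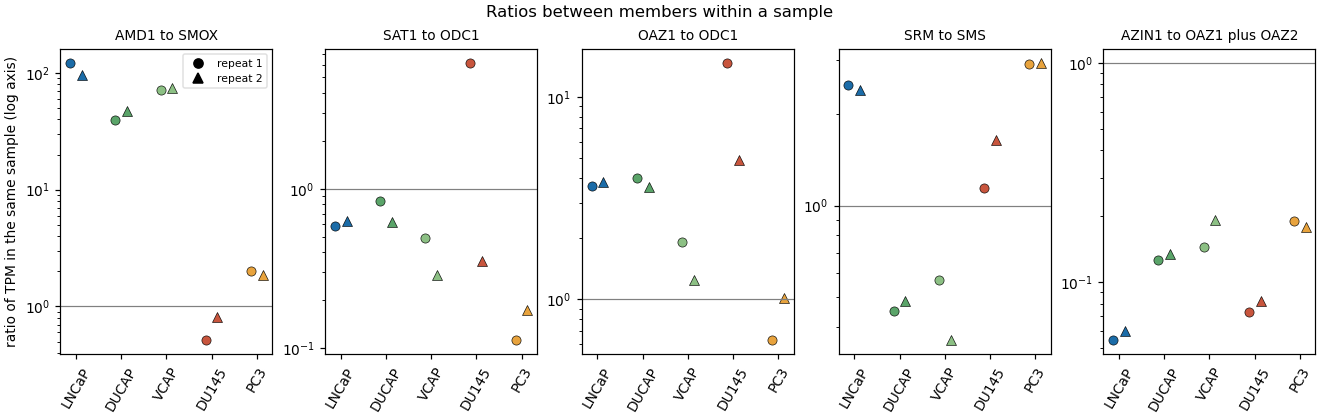
Ratios of the TPM of the named transcripts in each sample on a log axis, with a circle for repeat 1, a triangle for repeat 2 and a grey line at 1. AMD1 to SMOX separated LNCaP, DUCAP and VCAP from DU145 and PC3, SAT1 to ODC1 was above 1 in DU145 repeat 1 alone, and SRM to SMS was below 1 in DUCAP and VCAP alone.

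A list of 35 further genes of the pathway was compiled by role, and 30 of them passed the filter. In the contrast of the 3 with the 2 lines, 7 were higher, 16 lower and 7 did not pass. The median difference of the list was −0.45, against −0.40 for all genes, and its shares of calls, 23 of 30, were near the background given above. By role, 1 of 5 tested genes of ornithine supply was higher and 2 were lower, 3 of 9 transporters were higher and 5 lower, and 2 of 9 genes of S-adenosylmethionine supply and methionine salvage were higher and 4 lower. None of the 4 hypusination genes was higher and 3 were lower, and of 3 tested relatives of the members 1 was higher and 2 were lower.

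By log2 difference, the called genes furthest up were ARG2, SLC22A3 and MAT1A. ARG2, the mitochondrial arginase that supplies ornithine, was at 119 TPM in both LNCaP repeats, 52.2 and 55.3 TPM in VCAP and 7.46 and 10.9 TPM in DUCAP, and at 2.34 to 8.78 TPM in DU145 and PC3. DUCAP therefore overlapped DU145, although the contrast passed (log2 difference 2.89, adjusted p = 3.1e-05 from limma). SLC22A3, an organic cation transporter, was at 8.98 and 9.68 TPM in LNCaP and at no more than 2.58 TPM elsewhere, with DUCAP at 2.36 and 2.58 TPM, VCAP at 2.09 and 2.18 TPM and DU145 at 2.26 and 2.27 TPM, and PC3 was at 0.14 and 0.30 TPM (log2 difference 1.27, adjusted p = 3.7e-06 from limma). MAT1A, an S-adenosylmethionine synthetase typical of liver, was at 1.49 and 1.38 TPM in VCAP and under 1 TPM in every other sample. It passed the filter only through VCAP, so its difference is not evidence of a direction. The same holds for the transporter SLC47A1, counted above among those lower, which reached 1 TPM only in DU145 (7.88 and 5.35 TPM).

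The largest decreases were in OAT, GPC1 and AZIN2. OAT, the ornithine aminotransferase, was at 51.3 to 89.8 TPM in DU145 and PC3, at 6.86 to 7.66 TPM in LNCaP, at 3.26 and 3.57 TPM in VCAP and listed at 0 in both DUCAP repeats (log2 difference −4.30, adjusted p = 1.6e-08 from limma). It was the 1 gene of the list under 1 TPM in both repeats of one line and above 10 TPM in both repeats of another. GPC1, the heparan sulfate proteoglycan glypican-1, was at 65.5 to 116 TPM in DU145 and PC3 and at 1.87 to 13.6 TPM in the other lines (log2 difference −3.90, adjusted p = 1.1e-07). AZIN2, the second antizyme inhibitor, was at 24.9 and 6.23 TPM in DU145 and 6.31 and 6.04 TPM in PC3, and at 0.47 to 2.17 TPM elsewhere (log2 difference −2.26, adjusted p = 0.00024 from limma). ARG2, SLC22A3, OAT, GPC1 and AZIN2 passed with the same direction on the other 3 scales. MAT1A is left aside here, since it passed the filter only through VCAP.

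For the 3 genes with the widest range of line means, the tested genes with the most similar pattern were ranked by Pearson's r of log2(TPM + 1) over the 10 samples. For SMOX they were GOLGA8K, CRYZL2P and MELTF (r between 0.994 and 0.995). GOLGA8K did not exceed 1.71 TPM in any sample, so its r rests on values near the floor. For ODC1 they were UBE2M, NAA50 and UBE2J2 (r between 0.966 and 0.969). For AMD1 they were IQANK1, EPN3 and GASK1B (r between 0.991 and 0.994). With 5 lines such values are common, since 921 genes had an r above 0.90 with SMOX, 293 with AMD1 and 104 with ODC1.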

How the data were processed

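The authors checked reads with FastQC 0.11.9, trimmed them with Trim Galore 0.6.5, aligned them with STAR 2.7.2b to GRCh38 with an Ensembl and Gencode transcriptome, and quantified genes with RSEM 1.3.3 (versions from the submitters' processing notes). They deposited TPM per gene symbol and sample, with no stated scaling between samples and with repeats not pooled. TPM keep no depth, so the precision of a value rests on 2 repeats per line.

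Lines and repeat numbers were taken from the sample labels. TPM were transformed to log2(TPM + 1). Genes reaching 1 TPM in 2 or more samples (17520) were kept, and limma 3.58.1 (R 4.3.3) was fitted with a mean for each line and an intensity-dependent prior variance. P-values were adjusted by Benjamini and Hochberg over all of them. An F test over the 5 lines, the contrast of LNCaP, DUCAP and VCAP with DU145 and PC3, and the 10 pairs of lines were taken from this fit. The choice of a highest line fixes the sign of each step in the order of levels. The fit was tested on simulated data, where 200 of the 17520 genes carried a log2 change of 1.5, of which the contrast recovered 91.5% and the F test 82.5%.

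The members and gene lists were chosen with earlier results of these data known. Named genes were the 10 members, the 3 largest increases and decreases among called genes of the wider list, its genes under 1 TPM in one line and above 10 TPM in another, related pseudogene, antisense and divergent rows, and the 3 genes most alike for each of 3 members. Alternatives were another pseudocount, filter, scaling or prior, the repeat number as a covariate, and each sample left out in turn, where the lone repeat of a line is assumed to vary like the other lines. Python 3.11.15, numpy 2.4.6, pandas 2.3.3 and matplotlib 3.10.9 were used.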

Additional observations from a re-analysis of the deposited data

How the results depend on the processing

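Total counts of called genes stayed within 1.5 times of those reported under the 17 alternatives, but their split by direction did not. Genes called higher in the 3 lines numbered 3940 as reported, 6092 after median-ratio scaling and 6825 after quantile normalization. Genes called lower numbered 9093 as reported and 6019 after quantile normalization. For the steps between neighbouring lines, the matching share of all tested genes was not counted under any alternative. The steps between neighbouring lines that passed numbered 13 as reported, 20 without DU145 repeat 1 and 19 without DU145 repeat 2, the range over left-out samples being 9 to 20. Of the 170 differences of single genes in the contrast of the 3 with the 2 lines, 22 no longer passed, 2 newly passed, 1 reversed and the others kept their direction and their side of the threshold. The reversed one was SAT1, which ranged from −1.08 without DU145 repeat 2 to 0.016 without DU145 repeat 1, against −0.53. The highest line exchanged places with the next for SAT1 (LNCaP minus DU145) after quantile normalization (−0.028) and without DU145 repeat 2 or LNCaP repeat 1 (between −1.09 and 1.10 over the left-out samples), for SRM (PC3 minus LNCaP, −0.032) and OAZ2 (PC3 minus LNCaP, −0.014) after quantile normalization, and for OAZ1 (LNCaP minus DU145) without DU145 repeat 1 (between −0.088 and 0.25 over the left-out samples). The share of called genes of the whole table that were higher in the 3 lines moved from 30.2% to between 39.0 and 53.1% with the scaling.

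When repeat 1 and repeat 2 were entered as a replicate block, 13007 genes passed in this contrast in place of 13033, and 8 of the 10 genes passed as before. The block ended the call of OAZ1 between DUCAP and VCAP (adjusted p = 0.052 from limma) and added that of PAOX between DU145 and VCAP (adjusted p = 0.026). No label links repeat 1 of one line to repeat 1 of another, and across 10 pairs of lines the departures of equally numbered repeats correlated with r between −0.19 and 0.25.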
